A study of Homo sapiens with 6 samples.

Results

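The IFIT family (interferon-induced proteins with tetratricopeptide repeats) comprised IFIT1, IFIT2, IFIT3 and IFIT5, taken as the 4 genes with these symbols among the 60498 genes of the deposited table. All 4 passed the filter on low counts (a mean of 10 or more per library), which kept 15126 genes, and their lowest count in any library was 118. Their levels and their response to 2'3'-cGAMP were followed in 3 versions of SKOV3, an ovarian carcinoma cell line.

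The study asked whether the HAQ haplotype of STING1, a set of linked nonsynonymous variants, alters the response to cGAMP, the second messenger that binds and activates the STING1 protein. RNA-seq libraries were made from the parent line with 1 WT and 1 HAQ allele (WT/HAQ) and from clones in which dual-guide CRISPR/Cas9 removed an allele, leaving WT alone (WT/-) or HAQ alone (HAQ/-). For each line there was a library labelled control and a library from cells that took up cGAMP (10 μg/mL) during 30 min and then rested for 4 h. cGAMP entered through digitonin-permeabilized membranes, and the sources used here do not say whether control cells were permeabilized. Each edited line was a clone with 1 library per treatment, so haplotype, clone and library cannot be told apart, and each single value carries counting error only.

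IFIT genes are among the most inducible interferon-stimulated genes (ISGs). They are switched on by ISGF3, the interferon-activated factor that includes STAT2 and IRF9, and also directly by IRF3, which STING1 activates through TBK1. IFIT1 binds the 5′ end of RNA that lacks 2′-O methylation of the cap and blocks its translation, IFIT3 binds and stabilizes IFIT1, IFIT2 binds AU-rich RNA and joins the same complexes, and IFIT5 works alone on RNA with a 5′ triphosphate.

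The 4 genes lie side by side on the plus strand of chromosome 10 (GRCh38, GENCODE 44), in the order IFIT2, IFIT3, IFIT1, IFIT5, within 119 kb. Their canonical transcripts are chr10:89302046-89309271 for IFIT2 (3393 bases), chr10:89327997-89340968 for IFIT3 (2390 bases), chr10:89392623-89406487 for IFIT1 (4302 bases) and chr10:89414568-89420997 for IFIT5 (4029 bases). Each has 2 exons, both with coding sequence. The RefSeq promoter windows (GRCh38.p14, 250 bases before to 50 after a transcript start) matched 3 of the 4 genes, with separate windows for each of 2 starts of IFIT3. They are shown because they carry the interferon-stimulated response element (ISRE), the DNA motif that ISGF3 and IRF factors bind. The 165 bases before each start are printed 5′ to 3′ on the plus strand, and capitals mark every whole match to TTTCNNTTTC, which reads GAAANNGAAA on the other strand. The windows are chr10:89392458-89392622 for IFIT1, chr10:89327832-89327996 and chr10:89332364-89332528 for IFIT3, and chr10:89414403-89414567 for IFIT5.
IFIT1: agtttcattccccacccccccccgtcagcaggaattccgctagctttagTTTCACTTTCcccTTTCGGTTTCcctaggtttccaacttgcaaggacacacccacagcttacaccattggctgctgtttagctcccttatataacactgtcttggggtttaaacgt
IFIT3, first start: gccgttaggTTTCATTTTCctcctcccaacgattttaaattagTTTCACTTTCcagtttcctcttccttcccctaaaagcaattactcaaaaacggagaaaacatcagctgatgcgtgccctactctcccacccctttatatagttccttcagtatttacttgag
IFIT3, second start: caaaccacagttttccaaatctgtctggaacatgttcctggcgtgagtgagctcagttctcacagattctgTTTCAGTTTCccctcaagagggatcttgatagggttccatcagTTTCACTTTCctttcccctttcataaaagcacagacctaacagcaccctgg
IFIT5: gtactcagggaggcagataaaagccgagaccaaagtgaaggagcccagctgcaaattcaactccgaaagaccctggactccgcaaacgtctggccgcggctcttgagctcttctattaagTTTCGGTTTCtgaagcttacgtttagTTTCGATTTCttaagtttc

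The ISRE core occurred in all 4 windows of IFIT1, IFIT3 and IFIT5, against 1255 of all 35116 windows of the same length (3.57%). Counted from the transcript start, with -1 the last base before it, the matches began at -116 and -103 in IFIT1, at -156 and -122 before the first start of IFIT3, and at -94 and -51 before the second. In IFIT5 they began closer in, at -45 and -19, and another at -4 ran across the start and is cut by the end of the printed part. The longer form GAAANNGAAACT, which was in 0.273% of all windows, matched 1 time in the IFIT1 window, 1 time in each IFIT3 window and at all 3 places in IFIT5. Among these 3 genes IFIT5, the member with the smallest response to cGAMP, held the most core matches in a single window. IFIT3 held 2 in each of its windows, and IFIT2, the member with the largest response, had no window. These are matches of letters, and binding was not measured.

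Library totals ran from 12444822 to 17608467 counts. The 3 cGAMP libraries had the lowest totals, and TMM factors between 0.940 and 1.052 scaled all 6. STING1 itself, the edited gene, had 669 normalized counts in the WT/HAQ control and 1780.3 with cGAMP, 353 and 553 in the WT/- libraries and 213 and 403 in those of HAQ/-. Gene counts do not separate its alleles. All 6 epithelial markers were expressed in every library (ERBB2, amplified in SKOV3, at 34787 to 79376 counts), and 2 of them were lower by 1.5-fold or more after treatment in WT/HAQ, 1 in the WT/- clone and 0 in the HAQ/- clone. PAX8, a transcription factor of the ovarian and tubal lineage, went from 7638 to 2068 counts in WT/HAQ, from 10063 to 3721 in WT/- and from 5288 to 2993 in HAQ/- (log2 fold changes of -1.78, -0.92 and -0.49), and did not pass the treatment test (adjusted p = 0.0821, edgeR). KRT19 had 6369 counts in the WT/HAQ control against 390 and 474 in the WT/- and HAQ/- controls. The part of these differences in the IFIT results was not tested. The 4 blood and immune markers had 0 to 3 counts per library. Of the 3 fibroblast markers COL1A1 (839 to 1123 counts) and DCN were present in every library, whereas COL3A1 had 0, 1 and 1 counts in the WT/HAQ, WT/- and HAQ/- controls and 51, 0 and 41 with cGAMP (adjusted p = 0.0664, edgeR). Of the 3 endothelial markers only PECAM1 passed the filter on low counts.

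In control cells the IFIT genes took a small part of the library. The 4 genes together held 969, 1836 and 1115 counts in the WT/HAQ, WT/- and HAQ/- controls, or 0.00550%, 0.0108% and 0.00655% of all counts. With cGAMP they held 133363, 96590 and 33395 counts, or 0.798%, 0.776% and 0.244% of the library. After cGAMP the family thus took a like share of both libraries with a WT allele, and a clearly smaller one in HAQ/-. In bulk RNA, fewer responding cells and less IFIT RNA per cell cannot be told apart.

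IFIT1, the cap sensor, had 104 normalized counts in the WT/HAQ control and 27734 with cGAMP. In WT/- it went from 234 to 25399, and in HAQ/- from 152 to 8042. The order of the 6 libraries was the 3 cGAMP libraries (WT/HAQ, WT/-, HAQ/-) and then the controls (WT/-, HAQ/-, WT/HAQ), and no neighbouring pair had overlapping 95% Wilson intervals.

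IFIT2, the AU-rich RNA binder, had the highest level per kb of the family in each cGAMP library. It went from 198 to 64285 normalized counts in WT/HAQ, from 467 to 69721 in WT/- and from 236 to 16129.6 in HAQ/-. Here WT/- stood above WT/HAQ in both treatments, and the intervals of the WT/HAQ control (174 to 226) and the HAQ/- control (209 to 265) overlapped.

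IFIT3, the partner that stabilizes IFIT1, went from 237 to 32393 normalized counts in WT/HAQ. The corresponding values were 607 and 31535 in WT/-, and 227 and 10662 in HAQ/-. The WT/HAQ and HAQ/- controls (210 to 267 and 201 to 256) could not be separated, whereas the WT/- control was well above both.

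IFIT5, the triphosphate RNA sensor, moved far less. Its levels were 317 and 2349 normalized counts in WT/HAQ, 406 and 2352 in WT/-, and 359 and 1722 in HAQ/-. Its cGAMP levels in WT/HAQ and WT/- had overlapping intervals (2258 to 2443 and 2245 to 2464), as did the neighbouring control levels, in which WT/- and WT/HAQ alone were apart. For each of the 4 genes the lowest cGAMP library was above the highest control library, as the plot of levels by library shows. The share of all genes with such a gap was not counted.

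**Figure D1:**
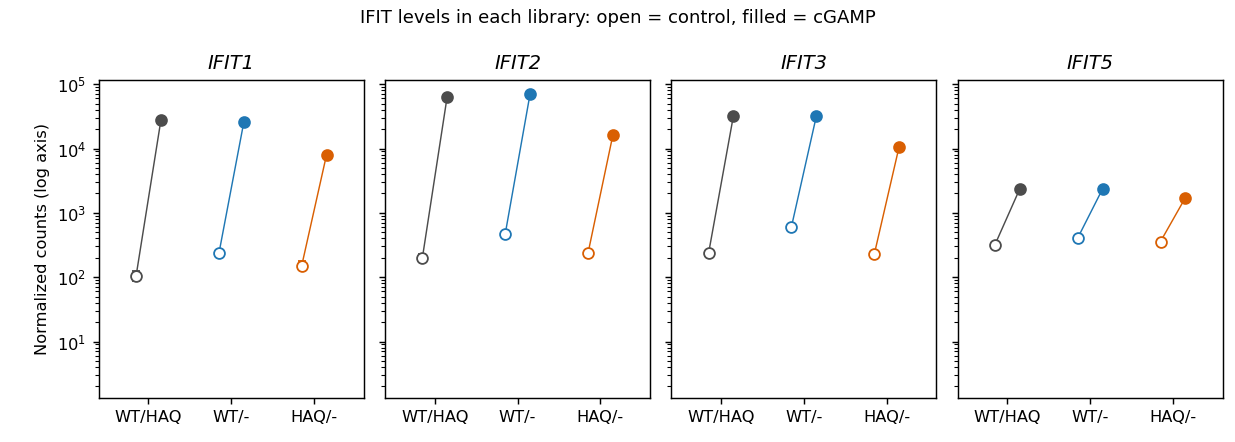
Normalized counts (log axis) of IFIT1, IFIT2, IFIT3 and IFIT5 in the 6 libraries, with open circles for control, filled circles for cGAMP, a line joining the libraries of a cell line, and bars for 95% counting intervals, most of them smaller than the symbols. The filled circles of IFIT1, IFIT2 and IFIT3 stand lower in HAQ/- (8042, 16129.6 and 10662) than in either line with a WT allele, and IFIT5 reaches 1722 to 2352.

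The cGAMP response was the ratio of the cGAMP to the control library of a line. IFIT2 had the largest of the family in each line, 325-fold (95% counting interval 285 to 370) in WT/HAQ, 149-fold (137 to 163) in WT/- and 68.5-fold (60.7 to 77.2) in HAQ/-. IFIT1 followed at 266-fold (222 to 319), 108-fold (95.7 to 123) and 53.0-fold (45.6 to 61.6). IFIT3 was 137-fold (121 to 154), 52.0-fold (48.1 to 56.2) and 47.0-fold (41.6 to 53.2) higher. All 3 genes were thus changed by well over an order of magnitude in every line, with the largest ratio in WT/HAQ and the smallest in HAQ/-.

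IFIT5 was 7.40-fold (6.63 to 8.27), 5.79-fold (5.22 to 6.43) and 4.80-fold (4.31 to 5.35) higher. It kept the same order of lines as the others. The IFIT3 intervals of WT/- and HAQ/- overlapped, and so did the IFIT5 intervals of these lines.

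A gene was counted as raised at 1.5-fold or more. All 4 of the 4 IFIT genes were raised in WT/HAQ, against 12.8% of all genes analysed. They were raised in WT/- too (4 of 4, against 11.9%) and also in HAQ/- (4 of 4, against 6.75%). The median log2 fold change of the 4 genes was 7.58, 6.23 and 5.64 in WT/HAQ, WT/- and HAQ/-, where the middle of all genes stayed at -0.01 in WT/HAQ and HAQ/- and their 95th percentiles were 1.37, 1.25 and 0.74. By size of fold, IFIT2 ranked 6th of 15114 genes in WT/HAQ, 10th of 15099 in WT/- and 3rd of 15072 in HAQ/-. IFIT1 ranked 8th, 12th and 6th, IFIT3 12th, 22nd and 9th, and IFIT5 255th, 257th and 111th. All 4 therefore stood nearer the top of the list in HAQ/- than in WT/HAQ although their folds were smaller there, as the plot of log2 fold changes shows beside the narrower range of all genes in HAQ/-.

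**Figure D2:**
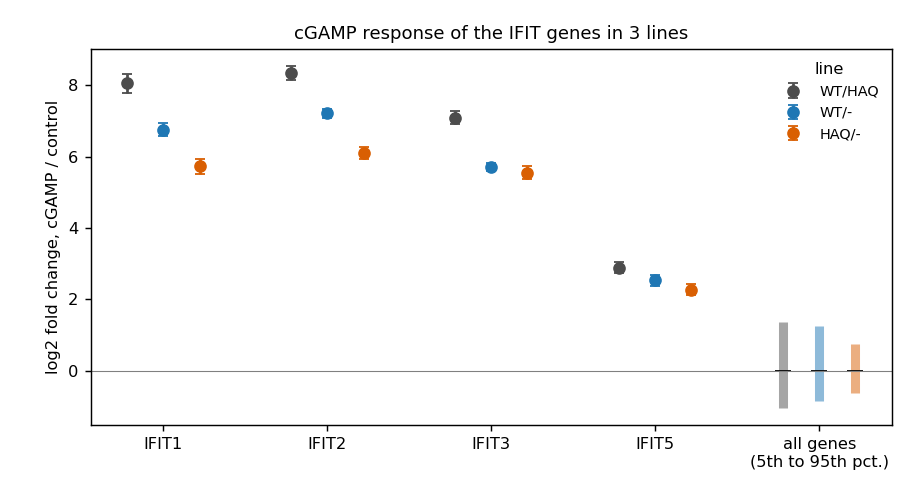
Log2 fold change of each IFIT gene, cGAMP over control, in WT/HAQ (grey), WT/- (blue) and HAQ/- (orange), with 95% counting intervals, beside bars from the 5th to the 95th percentile of all genes in the same line with the median as a black dash. Each IFIT gene falls from WT/HAQ to WT/- to HAQ/-, from 8.34 to 6.10 for IFIT2 and from 2.89 to 2.26 for IFIT5, and all lie above the bars.

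Across the 3 lines, with the line as a block, all 4 IFIT genes rose with cGAMP in edgeR's quasi-likelihood F test (2 residual degrees of freedom). The error of a gene in this test is moderated towards that of the other genes, so its SE and p-value rest on them too. Of all 15126 genes, 2.27% were higher at an adjusted p under 0.05. The fitted log2 fold change was 6.83 (SE 0.51, Benjamini-Hochberg adjusted p = 0.00790) for IFIT1, 7.22 (SE 0.51, adjusted p = 0.00708) for IFIT2, 6.10 (SE 0.38, adjusted p = 0.00560) for IFIT3 and 2.56 (SE 0.14, adjusted p = 0.00388) for IFIT5. IFIT5 combined the smallest change of the family with the smallest SE. The direction was the same in 3 of 3 lines for each gene. Without the line WT/- the 4 changes were 6.88, 7.23, 6.34 and 2.59 but 0 of 4 genes passed in edgeR (adjusted p = 0.212, 0.192, 0.129 and 0.128), along with 0 of all genes tested, although 949 higher and 939 lower genes, the 4 IFIT genes among them, had an unadjusted p under 0.05. Over all alternatives run, the adjusted p of edgeR or DESeq2 ranged from 1.76e-25 to 0.212 for IFIT1, from 1.94e-30 to 0.192 for IFIT2, from 2.28e-35 to 0.129 for IFIT3 and from 5.33e-44 to 0.128 for IFIT5.

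The lines differed before cGAMP. The WT/- control was above the WT/HAQ control by 2.25-fold (95% counting interval 1.81 to 2.79) for IFIT1, 2.36-fold (2.01 to 2.76) for IFIT2, 2.56-fold (2.22 to 2.95) for IFIT3 and 1.28-fold (1.11 to 1.47) for IFIT5. The HAQ/- control was 1.46 times (1.15 to 1.84) the WT/HAQ control for IFIT1. For IFIT2, IFIT3 and IFIT5 the same ratio was 1.19 (0.997 to 1.42), 0.958 (0.808 to 1.14) and 1.13 (0.981 to 1.30), with 1 inside each interval. The WT/- control was thus above the WT/HAQ control for all 4 genes, and the HAQ/- control was apart from it for IFIT1 only. How many of all genes were apart between these controls was not counted, so the differences cannot be called particular to the family.

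After cGAMP the pattern was another one. WT/- over WT/HAQ was 0.916 (0.899 to 0.933) for IFIT1, 1.08 (1.07 to 1.10) for IFIT2 and 0.974 (0.958 to 0.990) for IFIT3. For IFIT5 its interval was 0.942 to 1.06. Both lines thus reached like levels, although counting error separated them for IFIT1, IFIT2 and IFIT3. The direction for IFIT5 changed with the scaling of the libraries. The HAQ/- library held 0.290 of the WT/HAQ level for IFIT1, 0.251 for IFIT2, 0.329 for IFIT3 and 0.733 for IFIT5. Against WT/- it held 0.317, 0.231, 0.338 and 0.732. IFIT2 was thus the member with the lowest relative level in HAQ/-, and IFIT5 the one nearest the other lines.

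Because the control levels differed, the level reached and the fold gave different pictures for WT/-. The log2 fold change of WT/- minus that of WT/HAQ was -1.29 for IFIT1, -1.12 for IFIT2, -1.40 for IFIT3 and -0.35 for IFIT5, although both lines reached like levels. For HAQ/- minus WT/HAQ it was -2.33, -2.25, -1.54 and -0.62 in the same order. HAQ/- minus WT/- was -1.03 (95% counting interval -1.31 to -0.75) for IFIT1, -1.13 (-1.34 to -0.91) for IFIT2, -0.15 (-0.36 to 0.06) for IFIT3 and -0.27 (-0.49 to -0.05) for IFIT5. For IFIT3 the folds of HAQ/- and WT/- were thus not separated by counting error, although HAQ/- held 0.374 of the WT/- level in the controls and 0.338 with cGAMP.

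The difference between the response of HAQ/- and that of the lines with a WT allele was tested as an interaction in edgeR (1 residual degree of freedom), where the gap between WT/HAQ and WT/- is a gene's own residual and edgeR moderates the error towards that of the other genes. The SE of an IFIT gene thus rests on other genes as well as on its own gap. None of the 4 IFIT genes passed, against 1.01% of all 15126 genes with a smaller response in HAQ/-. The log2 difference was -1.63 (SE 0.43, adjusted p = 0.165) for IFIT1, -1.66 (SE 0.38, adjusted p = 0.105) for IFIT2, -0.81 (SE 0.46, adjusted p = 0.704) for IFIT3 and -0.45 (SE 0.20, adjusted p = 0.551) for IFIT5. At an unadjusted p under 0.05 there were 2 of 4 (IFIT1 and IFIT2) in edgeR and 0 of 4 by the DESeq2 Wald test. Of all 15126 genes, 832 with a smaller and 589 with a larger response in HAQ/- were under it in edgeR, and 397 and 192 by DESeq2. With genes down to a mean count of 1 in the edgeR fit, IFIT1 and IFIT2 passed (adjusted p = 0.00520 and 0.00106). They were among 353 of 21012 genes called with a smaller response in HAQ/-. All 4 estimates were negative in every alternative run, and the test compares these lines, not the haplotypes.

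The mixture of IFIT transcripts changed with cGAMP. Per kb of canonical transcript, IFIT5 made up 30.2% of the family in the WT/HAQ control, 18.4% in the WT/- control and 30.8% in the HAQ/- control. With cGAMP its share was 1.47%, 1.45% and 3.71%. IFIT2 went the other way, from 22.4%, 25.2% and 24.1% to 47.9%, 51.1% and 41.3%. IFIT5 thus went from a major to a minor part of the mixture and IFIT2 became its largest part, less so in HAQ/- than in the other lines.

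Count ratios of 2 genes within a library do not depend on library scaling, and transcript length cancels when they are compared between libraries. IFIT2 to IFIT3 went from 0.836 (95% counting interval 0.700 to 0.998) to 1.98 in WT/HAQ, from 0.769 (0.685 to 0.864) to 2.21 in WT/- and from 1.04 (0.876 to 1.23) to 1.51 in HAQ/-. IFIT1 to IFIT3, the pair that forms a stable complex as proteins, went from 0.440 to 0.856, from 0.386 to 0.805 and from 0.669 (0.552 to 0.811) to 0.754 (0.732 to 0.778). The IFIT1 to IFIT3 ratio of HAQ/- thus had overlapping intervals in control and cGAMP, while those of the other lines were apart. IFIT2 to IFIT1 went from 1.90 (1.52 to 2.37) to 2.32 (2.29 to 2.35), from 1.99 to 2.74 and from 1.55 (1.28 to 1.88) to 2.01 (1.95 to 2.06), with overlapping intervals in WT/HAQ only. In the plot of ratios the HAQ/- lines of the first 2 panels are the flattest.

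**Figure D3:**
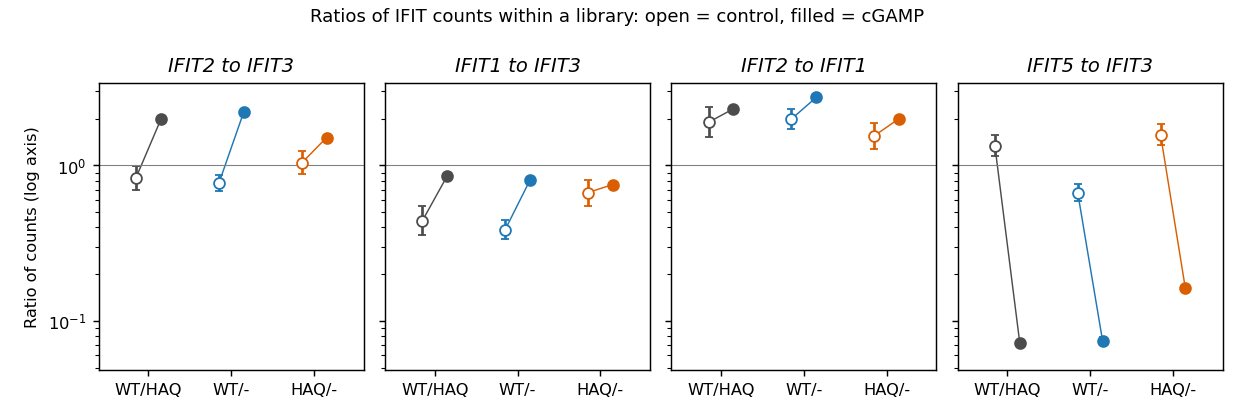
Ratio of the counts of 2 IFIT genes within a library (log axis) for IFIT2 to IFIT3, IFIT1 to IFIT3, IFIT2 to IFIT1 and IFIT5 to IFIT3, with open circles for control, filled circles for cGAMP and bars for 95% counting intervals; the grey line marks equal counts. IFIT2 to IFIT3 rises to 1.98, 2.21 and 1.51 with cGAMP, and IFIT5 to IFIT3 drops to 0.0725, 0.0746 and 0.161 in WT/HAQ, WT/- and HAQ/-.

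Levels of different genes were compared as normalized counts per kb of canonical transcript. In control cells IFIT3 stood highest, at 99.1, 254 and 94.9 per kb in WT/HAQ, WT/- and HAQ/-, where the median gene was at 102, 103 and 101. IFIT1 stood lowest, at 24.2, 54.4 and 35.3. With cGAMP the order was IFIT2, IFIT3, IFIT1, IFIT5 in all 3 lines, with IFIT2 at 18946, 20548 and 4754 per kb. IFIT2 thereby moved from rank 9278 of 14995 genes to rank 29 in WT/HAQ, from 6408 to 24 in WT/- and from 8774 to 155 in HAQ/-.

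IFIT3 reached ranks 43, 41 and 170, IFIT1 ranks 131, 145 and 455, and IFIT5 ranks 1852, 1904 and 2446 in the same order of lines. IFIT1, IFIT2 and IFIT3 thus moved close to the top of the ranking, less far in HAQ/- than in the other lines. With the merged exons of all annotated transcripts as the length, IFIT5 in place of IFIT3 stood first in the WT/HAQ and HAQ/- controls.

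The relatives of the family stayed near 0. IFIT1B, a gene between IFIT3 and IFIT1, had 0, 1 and 0 counts in the WT/HAQ, WT/- and HAQ/- controls and 7, 13 and 0 with cGAMP. Its own promoter window held 0 matches to the ISRE core. The pseudogene IFIT1P1 had 2 counts in the HAQ/- control and 0 elsewhere, and IFIT6P had 0 in all libraries. How reads were assigned between the members and these relatives was not tested.

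The interferon pathway around the family was followed in gene lists, ordered by role. Of 6 interferon ligands, 5 were analysed, 4 were raised in each of WT/HAQ and WT/- and 2 in HAQ/-, and 4 rose in the treatment test. IFNE, an epithelial type I interferon, went from 72 to 38 counts in WT/HAQ, from 107 to 31 in WT/- and from 113 to 108 in HAQ/-, lower by more than 1.5-fold in both lines with a WT allele, and did not pass the test (adjusted p = 0.375, edgeR). IFNL3, a type III interferon whose reads are hard to tell from those of its near-identical copy IFNL2, went from 2 to 286 counts in WT/HAQ, from 0 to 403 in WT/- and from 0 to 3 in HAQ/-. IFNB1, named after its values were seen, went from 5 to 1325, from 2 to 1934 and from 6 to 15, and it passed the test of the difference (adjusted p = 0.0249, edgeR), as did IFNL1 (adjusted p = 0.00608). In the HAQ/- cGAMP library 15 counts of IFNB1 thus stood beside 14735 counts of IFIT2.

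Of 6 receptors and kinases, 5 were analysed and 0 were raised in any line. None was called by edgeR or DESeq2, and 0 had an unadjusted p under 0.05. Of 5 transcription factors, 4 were raised in each line and higher in the treatment test, with STAT2 at a log2 fold change of 3.24, 2.55 and 1.80 in WT/HAQ, WT/- and HAQ/-, while IRF3 fell slightly (-0.49, SE 0.08, adjusted p = 0.0458, edgeR). The 3 feedback genes all rose, with ISG15 at 7.08, 5.60 and 5.15. Among 4 genes of cGAMP signalling, 3 were analysed and 1, STING1, rose (1.01, SE 0.16, adjusted p = 0.0447, edgeR). TBK1 had log2 fold changes of -0.68, -0.11 and -0.40 in the lines in that order (946 to 550 counts in WT/HAQ) and did not pass the test (adjusted p = 0.131, edgeR). The IFIT genes thus rose beside interferon-responsive factors and the brakes of the pathway. Like those of the members, the calls of the treatment test for these and the other lists are lost when the line WT/- is left out, where 0 genes pass in edgeR.

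Of 14 other antiviral RNA binders and effectors, all were raised in both lines with a WT allele (14 each) and 13 in HAQ/-, and 13 rose in the treatment test. Their median log2 fold change of 6.13, 4.61 and 4.37 lay below that of the IFIT genes in each line. OASL, a ubiquitin-like relative of the 2'-5' oligoadenylate synthetases, reached 8.47, 7.69 and 6.33. OASL and ZC3HAV1, the latter named after its values were seen, passed the test of the difference with smaller responses in HAQ/- (adjusted p = 0.0451 and 0.00612, edgeR).

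Genes for cap formation and for a translation factor that IFIT proteins bind had small log2 fold changes. Of 4 cap-forming enzymes, 0 passed the treatment test in edgeR, with 2 at an unadjusted p under 0.05 and 1 called by DESeq2. CMTR1, the enzyme that adds the first 2′-O methyl group, was raised in WT/HAQ and WT/- (log2 fold change 0.62 and 0.68) and stood at 0.26 in HAQ/- (adjusted p = 0.0691, edgeR). Of 13 subunits of eIF3, the translation factor that IFIT1 and IFIT2 bind, 0 were raised in any line and 0 were called by edgeR or DESeq2 (1 at an unadjusted p under 0.05), with mean log2 fold changes from -0.24 (EIF3J) to 0.24 (EIF3M). The plot of the pathway lists shows these lists close to 0.

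**Figure D4:**
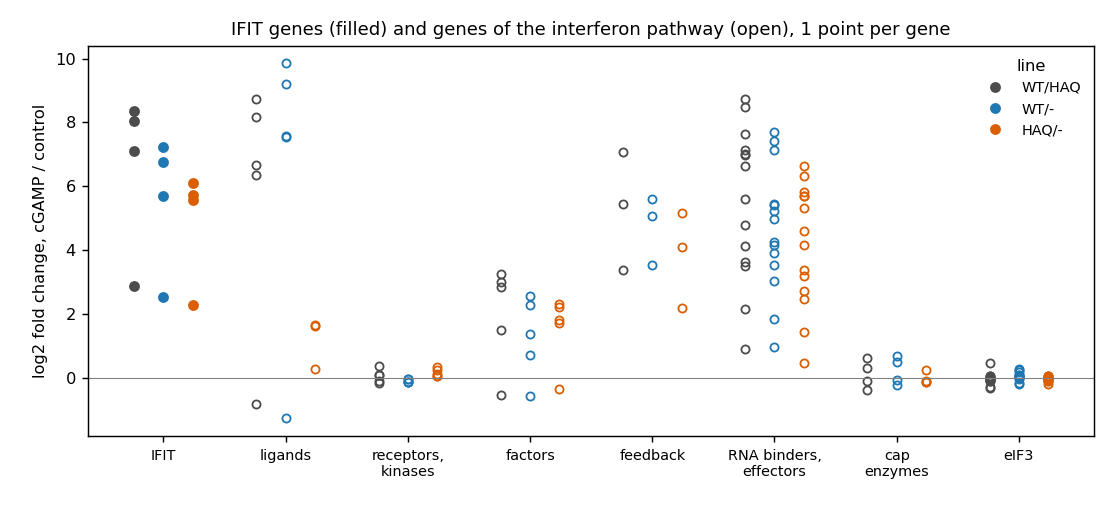
Log2 fold change, cGAMP over control, of the IFIT genes (filled) and of analysed genes of 7 pathway lists (open), 1 point per gene with a fold, for WT/HAQ (grey), WT/- (blue) and HAQ/- (orange). Control counts of IFNB1 and the IFNL genes were 0 to 7, and those under 3 were set to 3. The highest ligand stands at 1.65 in HAQ/-, where IFIT2 is at 6.10, and receptors, cap enzymes and eIF3 subunits lie near 0.

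IFIT2 and IFIT3 belong to the study's ISG signature, whose other 36 genes were all analysed. Of these, 35 were raised in each line with a WT allele and 34 in HAQ/-, and 33 rose in the treatment test, with median log2 fold changes of 3.17, 2.64 and 2.23. Among the 40 signature and IFIT genes, IFIT2 ranked 3rd, 3rd and 2nd by fold, IFIT1 4th, 5th and 5th, and IFIT3 6th, 6th and 7th. IFIT5 stood mid-list at 24th, 23rd and 21st. Of 30 signature genes with a promoter window, 19 held the ISRE core, against 1195 of all 27305 genes with a window (4.38%).

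The genes most like each member were found by the root mean square (RMS) difference of log2 normalized counts over the 6 libraries, each gene centred on its mean. For IFIT1 they were IFIT2 (RMS difference 0.25), OASL (0.41) and IFIT3 (0.44). IFIT2 was closest to OASL (0.24), IFIT1 (0.25) and MX2 (0.49). IFIT3 was closest to ISG15 (0.13) and OAS1 (0.25), both antiviral effectors, and to BATF2 (0.43). IFIT5 was closest to TRIM22 (0.15), an antiviral ubiquitin ligase, and to DTX3L (0.19) and PARP9 (0.19), which form an enzyme complex. IFIT1, IFIT2 and IFIT3 had rank 4 or better in 5 of their 6 directions, IFIT2 being 11th for IFIT3, whereas IFIT5 was 154th to 176th in the order of the other members.

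Genes next to the cluster on chromosome 10 were also followed. Of 9 listed neighbours, 6 were analysed, of which 6 were raised in each line with a WT allele and 2 in HAQ/-, and 1 (LIPA) rose in the treatment test. FAS, a death receptor before IFIT2, went from 237 to 1214 counts in WT/HAQ, from 189 to 973 in WT/- and from 216 to 211 in HAQ/-, a log2 fold change of 2.46, 2.88 and 0.29. PANK1, a coenzyme A synthesis enzyme on the other side of the cluster, had 2.18, 2.41 and 0.41. Neither passed the treatment test (adjusted p = 0.101 and 0.0903, edgeR). FAS passed the test of the difference (-2.37, SE 0.25, adjusted p = 0.00529, edgeR), and so did KIF20B (-1.91, SE 0.21, adjusted p = 0.00608), a kinesin named after its values were seen. In HAQ/- the 6 neighbours had log2 fold changes of 0.06 to 0.64 while the IFIT genes between them stood at 2.26 to 6.10, as the plot along the cluster shows.

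CH25H, an oxysterol-forming antiviral enzyme under the count filter and named after its values were seen, had 0 counts in all 3 controls and 20, 11 and 0 with cGAMP. LIPA, a lysosomal lipase named after its values were seen, rose in the treatment test (1.17, SE 0.19, adjusted p = 0.0458, edgeR). Its annotated transcripts on the minus strand together span IFIT2, IFIT3 and IFIT1 but not IFIT5, and share 65 bases of exon with IFIT2 and 94 bases with IFIT3, outside the canonical transcripts. The strand setting of the counting was not given in the sources used here, so reads in those bases cannot be assigned. IFIT2 also shares 524 bases of exon outside its canonical transcript with an unnamed gene on its own strand (mean count 18.2), which a stranded count would not separate. Among all 20 protein-coding genes within 1 Mb of the cluster, a window added after these values were seen, 7 besides the members were analysed, and the numbers raised in the 3 lines, in the same order, were 6, 7 and 2.

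**Figure D5:**
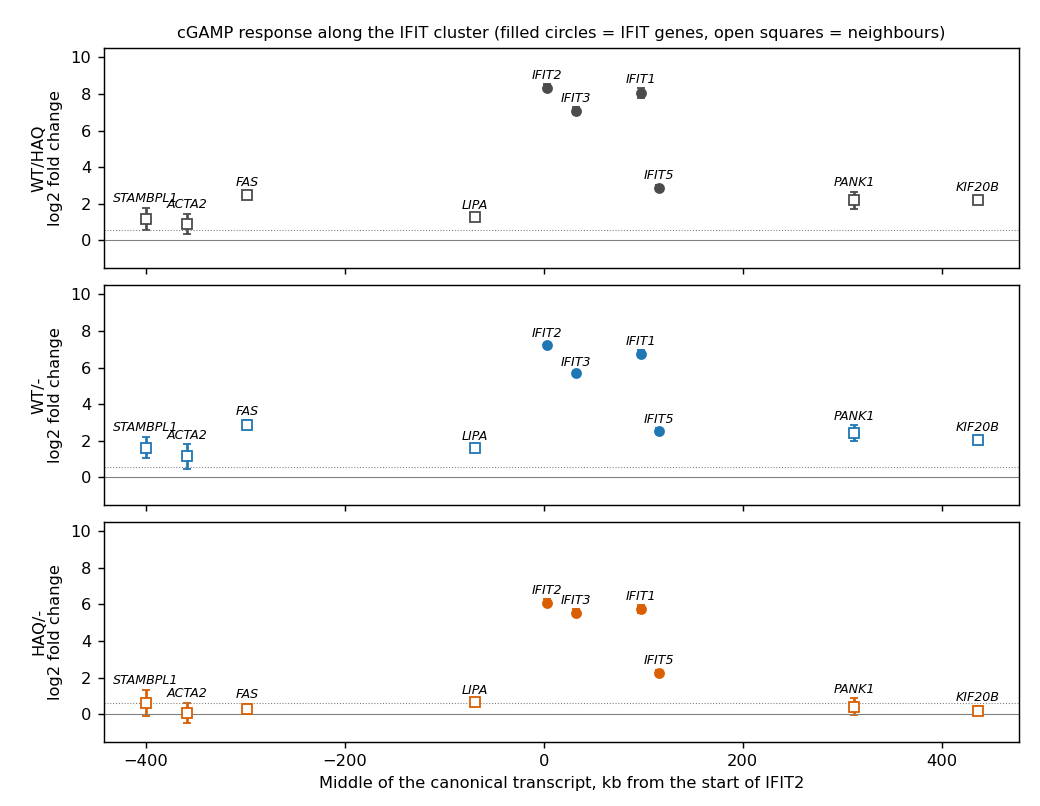
Log2 fold change, cGAMP over control, of the IFIT genes (filled circles) and their analysed neighbours (open squares) against the middle of the canonical transcript in kb from the start of IFIT2, for WT/HAQ, WT/- and HAQ/- from top to bottom, with 95% counting intervals and a dotted line at 1.5-fold. FAS and PANK1 stand at 2.46 and 2.18 in WT/HAQ and at 0.29 and 0.41 in HAQ/-, whereas IFIT2 stands at 8.34 and 6.10.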

How the data were processed

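RNA-seq libraries (TRIzol RNA, Illumina mRNA TruSeq, paired-end reads of 150 bases) of 3 SKOV3 lines with and without cGAMP were analysed, 6 in all. The authors deposited expected counts per gene, estimated by RSEM without normalization. The submitters' processing notes name STAR, RSEM and the builds GRCh38 and hg38. Versions, annotation and strand setting were not given in the sources used here. All 6 columns were matched to conditions through the labels, with 0 left over.

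Values were rounded to whole counts, genes averaging 10 or more counts per library were kept, and libraries were scaled by TMM. Normalized counts refer to a library of average effective size (geometric mean). Counts under 3 were set to 3 for a fold, and a gene at or under 3 in both libraries got none. Intervals are Wilson intervals at 95% and cover counting error only, since reads carried no molecular identifiers. Treatment and its difference were tested with the quasi-likelihood F test of edgeR 4.0.16 (R 4.3.3) with Benjamini-Hochberg adjustment, with DESeq2 1.42.0 as an alternative. The p-values rest on the spread between single libraries of the lines, not between cultures. In both edgeR tests that spread is moderated towards that of the other genes. Scripts were tested on simulated data. Positions came from GENCODE 44, which holds 14995 of the 15126 genes analysed. STING1 is listed under an older symbol and was matched through its identifier. The alternatives covered scaling, depth, count floor, rounding, filter, threshold, tool, line block, transcript length and leaving out a line.

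The members and lists were chosen with earlier results of these data known. Named genes were the members, STING1, up to 4 genes per list (those with the largest and smallest mean response) and the 3 genes nearest in profile to each member, apart from 1 that is not reported here. All other genes, cell type markers such as KRT19 included, were named after their values were seen.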

Additional observations from a re-analysis of the deposited data

How the results depend on the processing

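All 4 IFIT genes stayed raised in every line under each scaling, floor, filter, depth and threshold tried. With total counts in place of TMM, the median log2 level after cGAMP was -0.0831 for WT/- over WT/HAQ, -1.61 for HAQ/- over WT/HAQ and -1.46 for HAQ/- over WT/-, against -0.02, -1.69 and -1.61. IFIT1, IFIT2 and IFIT3 left their counting intervals in each of these comparisons. IFIT5 after cGAMP, WT/- over WT/HAQ (0.002), turned to -0.00897 with DESeq2 size factors, to -0.00872 with thinning to the smallest library, to -0.0627 with total counts and to -0.0337 with a mean count of at least 1, and IFIT3 in the HAQ/- over WT/HAQ controls (-0.06) turned to 0.00508 with total counts, all within their counting intervals. With merged exons IFIT5 held place 1 by level per kb in the WT/HAQ and HAQ/- controls, against 2. The treatment test called 489 genes, against 1355 with DESeq2, 1005 with a mean count of at least 1, 61 without the line as a block, and 0 to 2594 when a line was left out. The IFIT genes called were 4, and 0 to 4 when a line was left out. The test of the difference called 179 genes, against 105 with DESeq2 size factors and 516 with a mean count of at least 1, of which 2 were IFIT genes, against 0. The cause of these changes was not tested. The labels give no replicate numbers, and the libraries were paired by their line, which was the block of the treatment test. With 1 library per condition, the precision given is limited to counting error and does not cover the choice of scaling.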
